A study of Rattus norvegicus with 10 samples.

Results

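The polyamine genes of rat gastrocnemius, those for the enzymes that make and break down putrescine, spermidine and spermine and for the proteins that control the first of these steps, were described across 5 aged and 5 young animals. They were chosen by gene symbol: every probe set of the deposited table whose symbol was Odc1, Amd1, Srm, Sms, Sat1, Smox, Oaz1, Oaz2 or Azin1, or a former alias of these 9, was taken. The rule found 12 of 43686 probe sets, for 8 of the 9 genes. It matched no probe set to Odc1, which was not analysed here. The aged group comprised male Sprague-Dawley rats, an outbred stock, given as 24 months old and killed at 28 months, and stood for sarcopenia, the wasting and weakening of muscle in old age. The young controls were male rats of the same stock given as 6 months old and killed at 7 months. Total RNA came from the lateral gastrocnemius, a mixed-fibre calf muscle, of the left leg, with 1 array for each animal, and the comparison asked which transcripts differed in aged muscle.

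Polyamines are small positively charged molecules that bind RNA, DNA and ion channels, and growing cells need them. Ornithine decarboxylase, the product of Odc1, makes putrescine from ornithine. Amd1 encodes S-adenosylmethionine decarboxylase, which makes the aminopropyl donor. Srm encodes spermidine synthase and Sms spermine synthase, which each add an aminopropyl group to the chain. In the reverse direction, spermidine/spermine N1-acetyltransferase, from Sat1, marks both polyamines for export or oxidation, and spermine oxidase, from Smox, turns spermine back into spermidine with release of hydrogen peroxide. Antizymes, from Oaz1 and Oaz2, bind ornithine decarboxylase, send it to the proteasome and hold back polyamine uptake, and the antizyme inhibitor from Azin1 binds the antizymes in place of the enzyme. These proteins are strongly controlled in translation and stability, which a transcript level does not show.

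In aged muscle the acetyltransferase transcript Sat1 was 5.70-fold higher and the antizyme inhibitor Azin1 was 1.43-fold higher, while Amd1 was 1.79-fold, Smox 1.64-fold and Srm 1.26-fold lower, each by the brightest probe set of the gene. Oaz1 was 1.16-fold higher, on the edge of the threshold. Sms and Oaz2 did not pass. Of the 12 probe sets 8 passed an adjusted p of 0.05 in limma's moderated test, where the adjustment ran over the whole table, and 4 of these rose while 4 fell. With a change of at least 1.5-fold as well, 5 of the 12 passed, against 5.26% of all probe sets. Of all probe sets 15.0% passed, 8.09% higher and 6.87% lower. This split of 3535 higher and 3001 lower depended on the scaling of the arrays, with 3057 higher and 3334 lower after quantile normalization and 3973 higher and 2330 lower after median centring. Most member probe sets were bright, and brighter probe sets passed more often. In a fit of only the probe sets brighter than the median of the table, 6352 of 21843 passed, and 8 of 11 member probe sets. By the brightest probe set of each gene, 6 of 8 members passed, 3 in each direction, against 22.5% of 19027 genes. The members' median log2 fold change was -0.05 and their median absolute log2 fold change 0.43, beside -0.03 and 0.11 over all probe sets. Aged and young animals did not overlap in 8 of the 12 probe sets, against 11.7% of all probe sets. In RNA from whole muscle, a different share of a cell type and a different amount of RNA in each cell cannot be told apart.

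**Figure D1:**
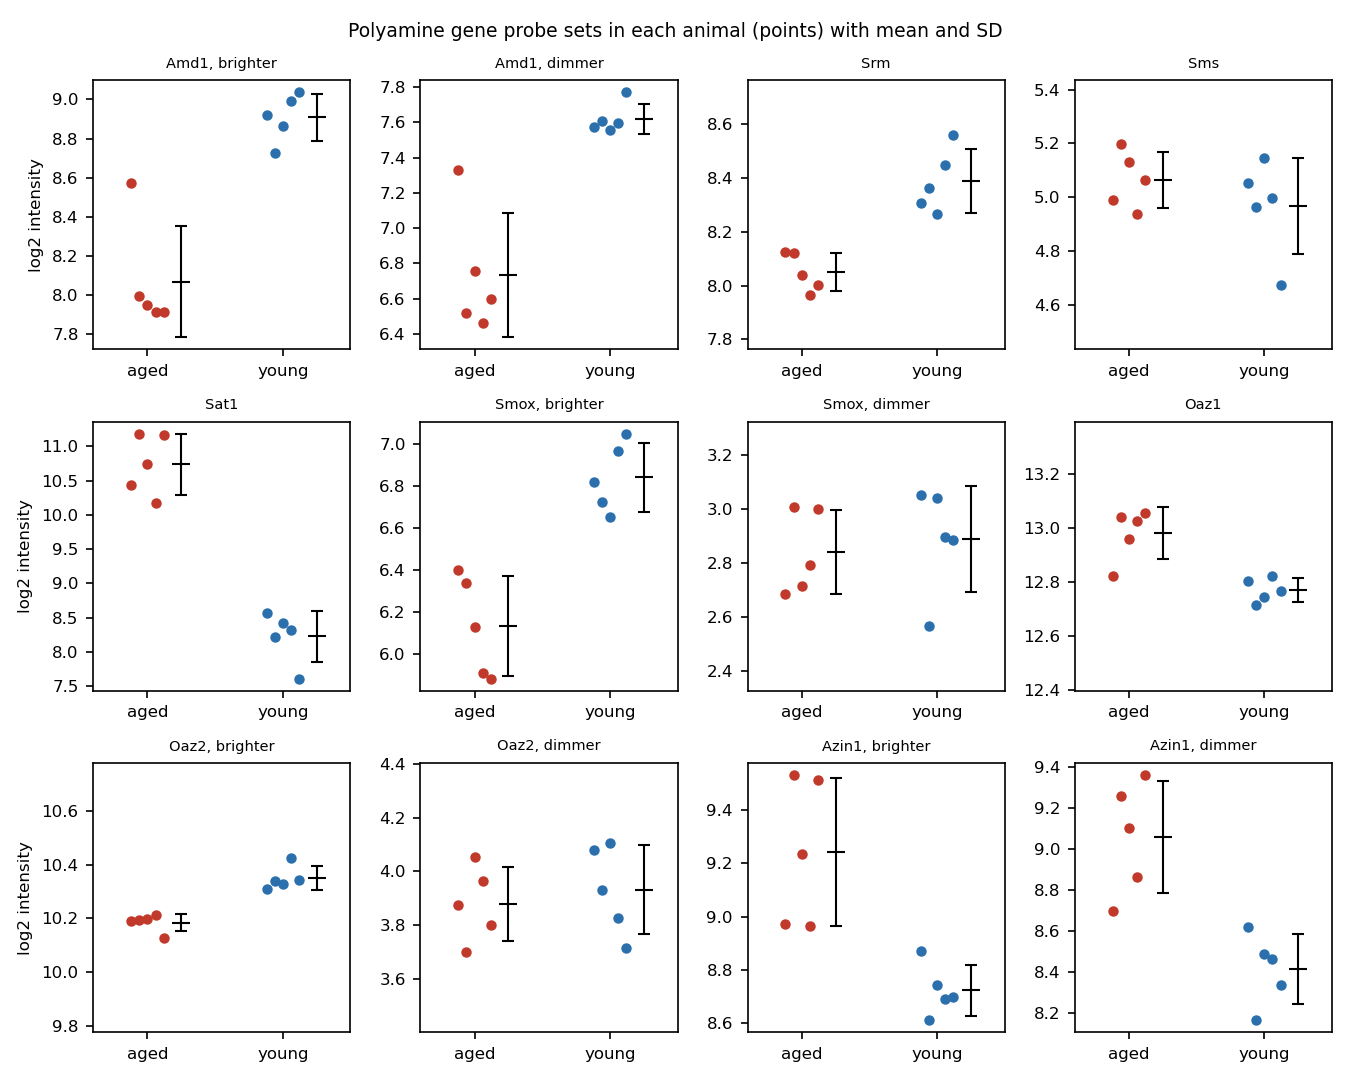
Log2 intensity of the 12 polyamine probe sets, each in a panel with its own range, for the 5 aged (left, red) and 5 young (right, blue) animals. Points are animals and the black bars give mean and SD. Sat1 stands apart with aged animals between 1150 and 2310 and young animals between 195 and 380 in intensity, and the points of Sms overlap.

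To show regulatory sequence of members that passed, the 250 bases before a transcript start were taken from RefSeq promoter windows of the rat assembly GRCr8, which matched 8 of the 9 symbols, all but Azin1. The windows of Sat1, which rose, and of Amd1, Srm and Smox, which fell, are written 5′ to 3′ on the strand of the gene. Capitals mark every match, on either strand, to the E-box CACGTG, which Myc and Max bind, to the CCAAT box, to TGACG, a part of the site of CREB and ATF factors, or to the TATA box, searched as TATAAA.
Sat1, chrX:44007839-44008088, plus strand: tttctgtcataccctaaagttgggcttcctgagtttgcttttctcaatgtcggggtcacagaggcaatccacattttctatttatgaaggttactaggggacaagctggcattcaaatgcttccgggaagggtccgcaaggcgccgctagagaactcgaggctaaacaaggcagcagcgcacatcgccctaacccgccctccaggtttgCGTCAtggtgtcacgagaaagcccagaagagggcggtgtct
Amd1, chr20:45265983-45266232, minus strand: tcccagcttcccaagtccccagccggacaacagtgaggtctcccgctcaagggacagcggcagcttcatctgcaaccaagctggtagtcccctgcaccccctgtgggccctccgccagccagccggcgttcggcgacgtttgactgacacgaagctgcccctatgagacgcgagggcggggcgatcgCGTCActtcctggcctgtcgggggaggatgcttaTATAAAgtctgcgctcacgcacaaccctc
Srm, chr5:164308752-164309001, plus strand: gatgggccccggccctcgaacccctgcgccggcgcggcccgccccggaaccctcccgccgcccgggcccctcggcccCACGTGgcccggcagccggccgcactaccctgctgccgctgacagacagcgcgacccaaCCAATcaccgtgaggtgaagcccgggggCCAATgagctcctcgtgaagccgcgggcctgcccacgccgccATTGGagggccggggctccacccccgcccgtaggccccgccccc
Smox, chr3:139204351-139204600, plus strand: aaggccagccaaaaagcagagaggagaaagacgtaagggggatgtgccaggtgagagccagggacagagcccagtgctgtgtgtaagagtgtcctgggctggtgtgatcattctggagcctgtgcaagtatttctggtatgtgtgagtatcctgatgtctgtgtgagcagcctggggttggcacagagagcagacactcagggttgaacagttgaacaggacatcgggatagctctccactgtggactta
Amd1 had a TATA box starting 29 bases and a TGACG match starting 63 bases before the start. In Sat1 the single match was to TGACG, starting 41 bases before the start. Srm had an E-box starting 173 bases before the start and 3 CCAAT boxes starting 114, 86 and 44 bases before it, and the Smox window held none of the 4 motifs. The window of Oaz1, which passed on the edge of the threshold, is not written out and held all 4 motifs. Its E-box started 234, its CCAAT box 162 and its TATA box 28 bases before the start. The 2 TGACG matches of Oaz1 started 243 and 38 bases before the start. Of 8 member windows 5 held TGACG, 2 an E-box, 2 a CCAAT box and 2 a TATA box, where 18.2%, 5.59%, 34% and 12.9% of 33469 windows of this length did. No base of a member window lay in 2 matches, and a match describes letters, not binding.

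Sat1, the acetyltransferase of polyamine breakdown, showed the largest difference of the members. Its intensity was 1382, 2310, 1716, 1150 and 2308 in aged replicates 1 to 5, against 380, 296, 342, 321 and 195 in young replicates 1 to 5. The lowest aged value was 3.02 times the highest young one, and aged replicate 4 was the lowest of its group. The mean was 1773 ± 529 in aged and 307 ± 69.6 in young animals (SD, n = 5 each), with a log2 fold change of 2.51 ± 0.21 (SE, adjusted p = 2.50e-05, limma) and a 95% interval of 4.17- to 7.80-fold. By log2 fold change Sat1 ranked 63rd from the highest of all 43686 probe sets. Within the young group replicate 5 was the lowest, and without it the log2 fold change was 2.36. Sat2, a paralogue that acetylates thialysine and is named for its likeness to Sat1, had 128 ± 16.9 in aged and 73.7 ± 9.95 in young animals and rose 1.75-fold (adjusted p = 0.00042, limma), without overlap.

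Sat1 is also expressed by macrophages, so the macrophage markers are given beside it. Of 9 measured macrophage markers 5 rose (Cd68, Csf1r, Adgre1, C1qa and C1qb), where 13.8% of all genes rose by the brightest probe set. The other 4 did not pass by their brightest probe set, although a dimmer one rose for Cd163 (adjusted p = 0.0183) and Mrc1 (adjusted p = 0.0056, limma). The summed intensity of the 9 markers was 2456, 1696, 1835, 1650 and 1394 in aged replicates 1 to 5, against 1280, 1118, 1241, 881 and 593 in young replicates 1 to 5. The groups did not overlap in this sum. The highest sum belonged to aged replicate 1, which was second lowest of its group for Sat1, and the lowest to aged replicate 5, which was second highest for Sat1. In the young group replicate 1 was the highest, replicate 3 second highest and replicate 5 the lowest for both the sum and Sat1. The part of macrophages in the Sat1 difference was not tested.

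Smox, the oxidase that returns spermine to spermidine, went the other way. Its brighter probe set had 84.4, 81.0, 70.0, 60.0 and 58.9 in aged replicates 1 to 5 and 113, 106, 100.5, 125 and 132 in young replicates 1 to 5. Each aged value was below each young one. The log2 fold change was -0.71 ± 0.11 (SE, n = 5 each, adjusted p = 0.00122, limma). Without the 2 aged columns whose names contain the word replacement it shrank to -0.55 (adjusted p = 0.00778, limma). In mouse muscle Smox is known as a transcript repressed in atrophy. The dimmer Smox probe set, with 6.43 to 8.04 in aged and 5.92 to 8.29 in young animals, lay below the array medians of 13.46 to 13.99 and did not pass (log2 fold change -0.05 ± 0.10, adjusted p = 0.812, limma). Averaged over both probe sets the log2 fold change was -0.38 ± 0.08 and still passed (adjusted p = 0.00565 over genes, limma).

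**Figure D2:**
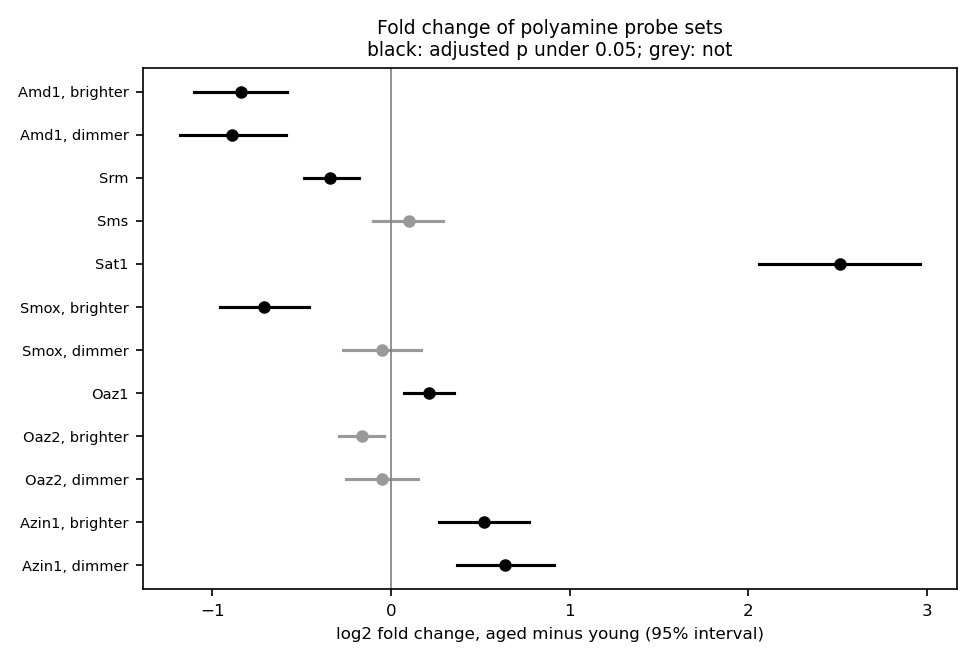
Log2 fold change, aged minus young, of the 12 polyamine probe sets (points) with limma's 95% interval (lines). Black marks adjusted p under 0.05 and grey marks the others. Sat1 lies at 2.51, far right of Azin1 at 0.52 and 0.64, and both Amd1 probe sets lie left of -0.8.

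Among the genes of synthesis, Amd1, which supplies the aminopropyl donor for spermidine and spermine, was lower in aged muscle on both of its probe sets. The brighter one read 381, 255, 247, 241 and 241 in aged replicates 1 to 5, against 485, 424, 466, 508 and 525 in young replicates 1 to 5. Aged replicate 1 sat near the young range and the other aged animals lay close together. The dimmer one read 161, 91.7, 108, 88.3 and 96.9 in aged replicates and 191, 195, 188, 194 and 218 in young replicates, again without overlap and with aged replicate 1 the highest of its group. The log2 fold changes were -0.84 ± 0.12 (adjusted p = 0.000603) and -0.89 ± 0.14 (adjusted p = 0.000965, limma), and without aged replicate 1 they were -0.97 and -1.04. Without the 2 aged columns whose names contain the word replacement they shrank to -0.74 (adjusted p = 0.00631) and -0.75 (adjusted p = 0.00888, limma).

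Srm, spermidine synthase, fell by less. It had 279, 279, 263, 250 and 256 in aged replicates 1 to 5 and 316, 329, 307, 349 and 378 in young replicates 1 to 5. All aged values were below all young values, and the log2 fold change was -0.34 ± 0.07 (SE, n = 5 each, adjusted p = 0.00700, limma). Without the 2 aged columns whose names contain the word replacement the adjusted p was 0.0523. Sms, spermine synthase, had 31.8, 36.7, 35.1, 30.7 and 33.5 in aged replicates and 33.2, 31.2, 35.4, 32.0 and 25.5 in young replicates. The groups overlapped, with a log2 fold change of 0.10 ± 0.09 (adjusted p = 0.530, limma) and a 95% interval from -0.10 to 0.29. A measured change as large as that of Amd1 lay outside this interval. The Sms readings were dim beside those of Amd1, and the deposited scaling is known to compress differences of dim probe sets. The interval therefore does not bound the change of the Sms transcript.

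Sms and Smox catalyse opposed steps between spermidine and spermine, and their balance was compared on each array as log2 Sms minus log2 Smox. This difference was -1.41, -1.14, -1.0, -0.97 and -0.82 in aged replicates 1 to 5 and -1.77, -1.76, -1.50, -1.97 and -2.38 in young replicates 1 to 5. The aged values were all above the young ones, by 0.81 in the mean (exact two-sided permutation test, p = 0.00794, the smallest that 5 against 5 arrays can give; adjusted p = 0.0159 over 2 such differences). With the mean over both Smox probe sets in place of the brighter one it was 0.48 (p = 0.00794, exact permutation test). The difference shows unequal change of the pair of probe sets and says nothing of the amounts of either transcript relative to the other. Smox alone was already without overlap and Sms alone did not pass, so the test adds little beyond the fall of Smox.

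Of the control proteins, Azin1, the antizyme inhibitor, rose on both probe sets. The brighter one read 502, 740, 603, 499 and 730 in aged replicates 1 to 5, against 468, 391, 428, 414 and 415 in young replicates 1 to 5. The lowest aged value was just above the highest young one. On the dimmer one, aged replicates had 416, 613, 551, 466 and 658 and young replicates 394, 287, 359, 353 and 323. The log2 fold changes were 0.52 ± 0.12 (adjusted p = 0.00832) and 0.64 ± 0.13 (adjusted p = 0.00382, limma). By the brighter probe set the aged animals stood in the same order for Azin1 as for Sat1, with replicate 2 the highest, then 5, 3, 1 and 4, an observation on 5 animals that was not tested. This order rested on near ties, 2310 against 2308 for Sat1 in replicates 2 and 5 and 502 against 499 for Azin1 in replicates 1 and 4. On the dimmer Azin1 probe set the order was another, 5, 2, 3, 4 and 1.

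Oaz1, the main antizyme, had 7240, 8426, 7960, 8356 and 8528 in aged replicates 1 to 5 and 7152, 6721, 6869, 7248 and 6976 in young replicates 1 to 5. Aged replicate 1 lay within the young range and the other 4 aged animals above it. The log2 fold change was 0.21 ± 0.07 (SE, n = 5 each, adjusted p = 0.0481, limma). This call depended on the settings: with quantile normalization the adjusted p was 0.0849, and leaving out any single array other than aged replicate 1 gave adjusted p-values from 0.0662 to 0.109, whereas without aged replicate 1 it was 0.0168. Without the columns named replacement it was 0.216. Oaz2, a second antizyme, had 1169, 1170, 1174, 1187 and 1119 on its brighter probe set in aged replicates, against 1269, 1295, 1285, 1375 and 1299 in young replicates. The groups did not overlap, yet the log2 fold change of -0.16 ± 0.06 missed the threshold (adjusted p = 0.0773, limma) and passed it with quantile normalization (adjusted p = 0.0353). A dimmer Oaz2 probe set overlapped between the groups, with 13.0 to 16.6 in aged and 13.2 to 17.2 in young animals (log2 fold change -0.05 ± 0.09, adjusted p = 0.764, limma).

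Azin1 and Oaz1 act in opposition, and log2 Azin1 minus log2 Oaz1 was -3.85, -3.51, -3.72, -4.07 and -3.55 in aged replicates 1 to 5 and -3.93, -4.10, -4.0, -4.13 and -4.07 in young replicates 1 to 5. The groups overlapped through aged replicate 4. The mean was 0.31 higher in aged muscle (exact two-sided permutation test, p = 0.0238; adjusted p = 0.0238 over 2 differences). The planned difference of Odc1 and Sat1 was not computed, since Odc1 was not analysed here.

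**Figure D3:**
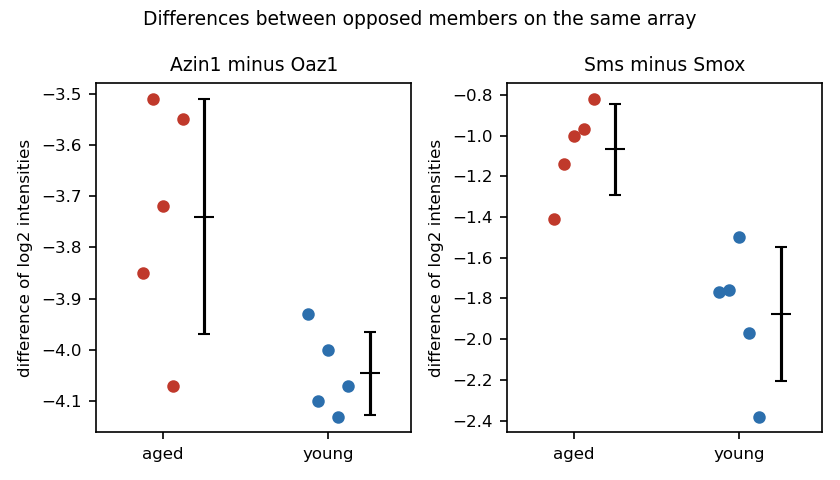
Difference of log2 intensities between opposed members on the same array, for Azin1 minus Oaz1 (left panel) and Sms minus Smox (right panel), in 5 aged (red, left) and 5 young (blue, right) animals with mean and SD. For Sms minus Smox the aged animals lie between -1.41 and -0.82 and the young between -2.38 and -1.50. For Azin1 minus Oaz1 aged replicate 4, at -4.07, lies within the young range.

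The animals differed in how far each member moved. Aged replicate 1 showed the smallest shift from the young mean of its group for Amd1 (-0.33 and -0.29 on the log2 scale, against -1.16 to -0.86 in the other aged animals), on the brighter Smox probe set (-0.44, against -0.96 to -0.50) and for Oaz1 (0.05, against 0.19 to 0.29). On the dimmer Smox probe set, which lay below the array medians, its shift was -0.20, against -0.17 to 0.12 in the other aged animals. The same animal had the smallest shift for Srm (-0.26, against -0.42 to -0.27) and on the dimmer Azin1 probe set (0.29, against 0.45 to 0.95). On the brighter Azin1 probe set its shift of 0.25 was next to the smallest, 0.24 in aged replicate 4. For Sat1 the shift of 2.21 in aged replicate 1 exceeded the 1.94 of aged replicate 4. Aged replicates 2 and 5 had the largest Sat1 shifts (2.95 in each) and the largest Azin1 shifts on the brighter probe set (0.81 and 0.79). Members with large shifts did not share a single order of animals.

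**Figure D4:**
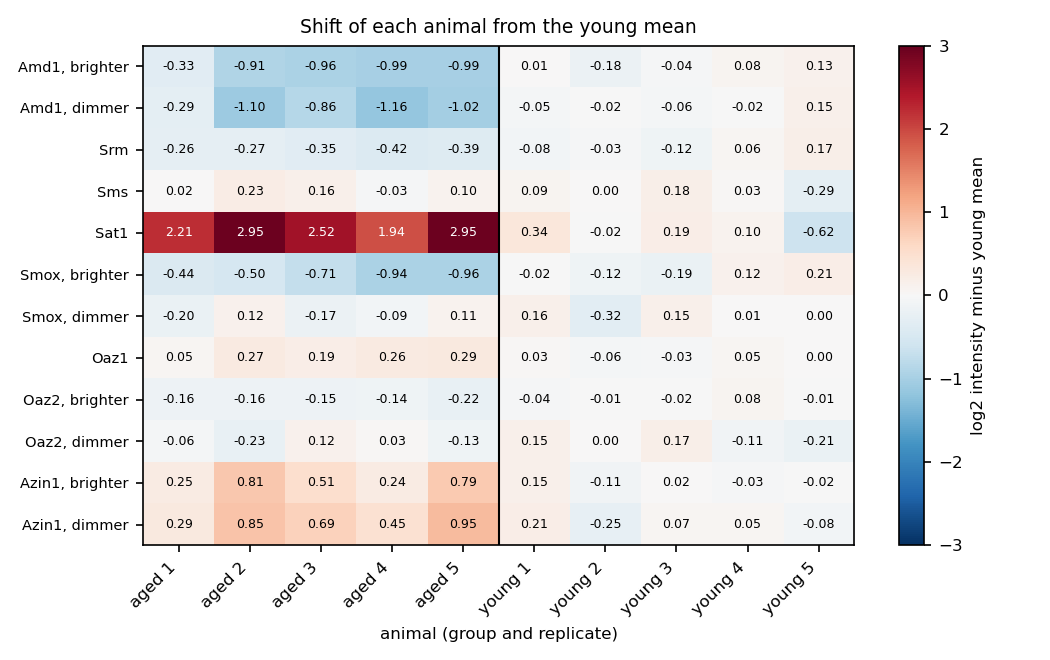
Log2 intensity of each polyamine probe set (rows) in each animal (columns, aged left and young right of the line) minus the mean of the young animals, with the value written in each cell (red above the young mean, blue below it). The Sat1 row is above 1.9 in all 5 aged animals, and the Amd1 rows are palest in aged replicate 1.

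The genes around the members were read from a list in 6 roles with 44 genes, of which 41 were measured. By the brightest probe set 13 rose, 3 fell and 25 did not pass, where 13.8% of all genes rose and 8.70% fell, and the list's median log2 fold change was 0.07. For the supply of arginine and ornithine, 0 of 7 rose and 2 fell. Slc7a1, a carrier of arginine and other cationic amino acids, had 15.2 ± 0.80 in aged and 20.2 ± 3.00 in young animals (1.32-fold lower, adjusted p = 0.00987), and Azin2, a second antizyme inhibitor, was 1.28-fold lower (adjusted p = 0.0122, limma). Further probe sets of these 2 genes did not pass.

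In the methionine cycle and the salvage of methylthioadenosine, the by-product of spermidine and spermine synthesis, 5 of 9 genes rose and 0 fell. Mtap, the phosphorylase that opens salvage, had 32.0 ± 5.71 in aged and 19.9 ± 1.49 in young animals (1.60-fold higher, adjusted p = 0.00164), and Enoph1, a later salvage enzyme, rose 1.47-fold (adjusted p = 0.000277, limma). Mat2a, which makes S-adenosylmethionine, rose 1.23-fold (adjusted p = 0.0171), its regulatory partner Mat2b 1.26-fold (adjusted p = 0.0159) and Ahcy, which clears S-adenosylhomocysteine, 1.28-fold (adjusted p = 0.0207, limma). Amd1, which draws on the same S-adenosylmethionine, was lower. Of Mat2a's 2 probe sets only the brighter passed.

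Among 10 measured genes linked to polyamine transport, 1 rose, 1 fell and 8 did not pass by their brightest probe set. Of these 8, Cav1 had a dimmer probe set that fell (log2 fold change -0.46 ± 0.14, adjusted p = 0.0489, limma). Gpc1, a cell surface proteoglycan that takes part in polyamine uptake, had 1277 ± 318 in aged and 531 ± 82.7 in young animals and rose 2.36-fold (adjusted p = 0.000402, limma). Atp13a2, the lysosomal polyamine exporter, was 1.25-fold lower (98.0 ± 13.8 in aged and 121 ± 5.42 in young animals, adjusted p = 0.0318, limma). Slc3a2, the heavy chain of amino acid carriers, had 793 ± 72.3 in aged and 921 ± 58.2 in young animals and did not pass (adjusted p = 0.0816). Of 4 genes of hypusine, the residue that spermidine provides to the translation factor eIF5A, Eif5a itself rose 1.18-fold (adjusted p = 0.0466, limma) while the other 3, among them those of the modifying enzymes, did not pass. Of the 3 measured other enzymes and antizymes, Sat2 was the 1 that rose.

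Of 8 genes known to act on member transcripts in rodents, 5 rose and 3 did not pass. Myc, a transcription factor known to raise Odc1 and Srm, had 128 ± 26.5 in aged and 42.3 ± 6.42 in young animals and rose 2.99-fold (adjusted p = 3.6e-05), and its partner Max rose 1.52-fold (adjusted p = 0.000753, limma), while Srm was lower. Hdac4, a histone deacetylase induced by denervation, rose 3.43-fold, and Cdkn1a, the gene of the cell cycle inhibitor p21 that lowers Smox in mouse muscle, rose 8.18-fold. Max and Hdac4 each had 2 probe sets, of which 1 passed. Cdkn1a had 5099 ± 1780 in aged and 619 ± 266 in young animals. Nfe2l2, which encodes the antioxidant factor Nrf2, rose 1.48-fold (adjusted p = 0.0024, limma). The part of these regulators in the members' differences was not tested.

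**Figure D5:**
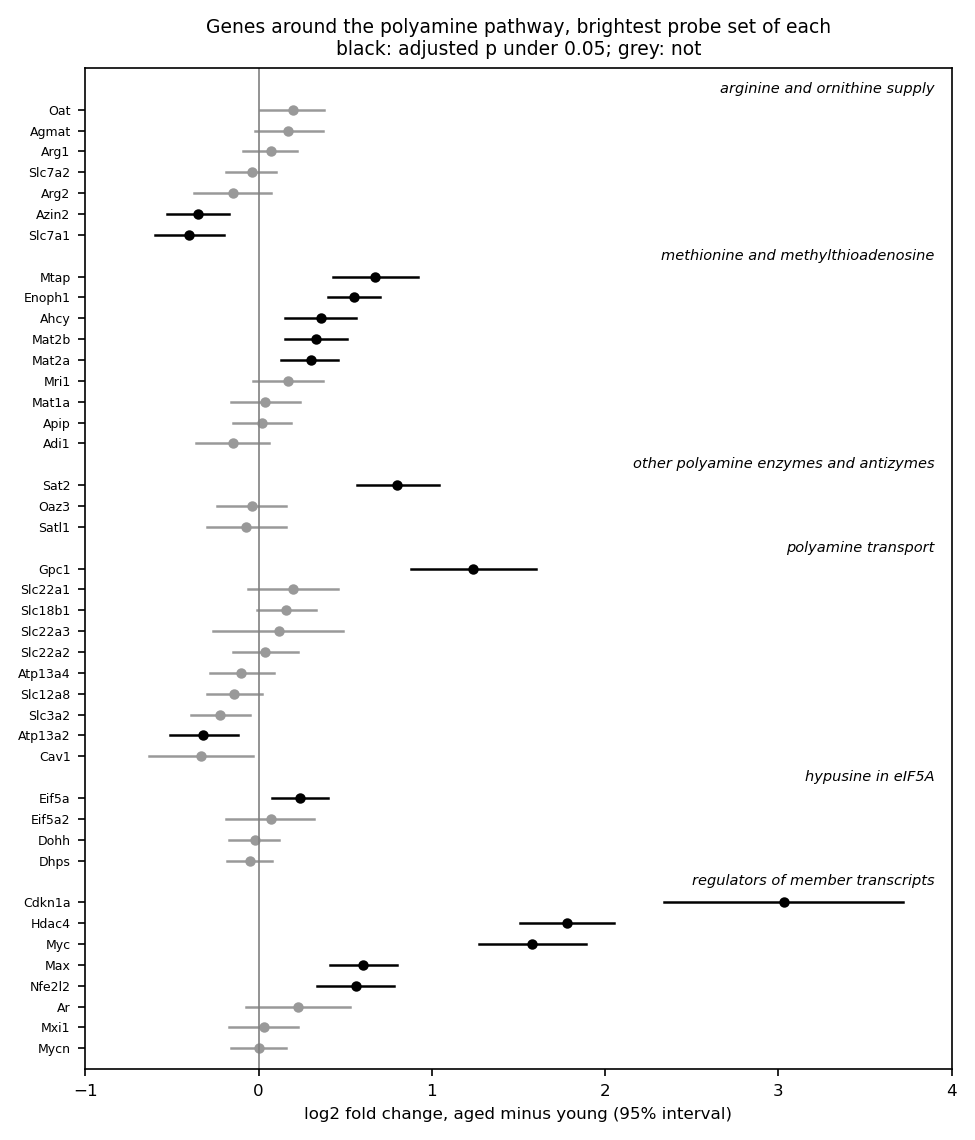
Log2 fold change, aged minus young, of 41 genes around the polyamine pathway, each by its brightest probe set (points) with limma's 95% interval (lines), grouped in 6 roles. Black marks adjusted p under 0.05 and grey marks the others. The methionine group has 5 black points right of 0, and Cdkn1a lies farthest right at 3.03.

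The genes whose profile over the 10 arrays was most like a member's were found by the root-mean-square difference of log2 intensities, each profile centred on its own mean. Nearest to Sat1 were Spg21 (0.186), Fbxo30 (0.206) and Acsl3 (0.235), which were higher in aged muscle by 2.48, 2.25 and 2.47 on the log2 scale. Fold changes near that of Sat1 follow from this choice, which used aged and young arrays together. Amd1 was nearest to Tab2 (0.073), Macir (0.082) and Lrig1 (0.092), and Smox to Pygm (0.090), Tmem60 (0.105) and Zfp358 (0.112). For Azin1 these were Cct2 (0.064), Spcs1 (0.075) and Recql (0.076), and for Oaz1 Tox4 (0.036), Rps29 (0.037) and Ap2s1 (0.043). Srm was nearest to LOC100360120 (0.043), Zmynd19 (0.053) and LOC680039 (0.062). Distances grow with the size of a change, so they rank genes for a single member and are not compared between members.

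Muscle fibre markers were bright on every array, with a summed intensity over 7 measured of 108116 to 115412 in aged and 110112 to 114114 in young animals, and none passed by its brightest probe set. Several of them lay near the top of the scale, where array maxima were 23870 to 25989, so this shows the tissue and not that their levels were equal. Apart from the macrophage list, none of 5 T cell, 5 fat cell, 5 endothelial, 5 Schwann cell or 2 red blood cell markers passed by its brightest probe set. The fibroblast marker Col1a2 and the smooth muscle marker Cnn1 fell, 1 of 5 and 1 of 3 in their lists, and the satellite cell marker Myf5 rose, 1 of 3. A dimmer probe set passed for 4 further markers, lower for Myh4 (adjusted p = 0.0251), Col1a1 (adjusted p = 0.0176) and Myh11 (adjusted p = 0.00306) and higher for S100b (adjusted p = 0.0474, limma). The part of these cells in the members' differences was not tested.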

How the data were processed

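Biotin-labelled complementary RNA from 10 muscles, 1 array for each of 5 aged and 5 young rats, was measured as probe set intensity. The deposited intensity values are linear, and RMA, which the submitters' processing notes list with no version or settings, had put the arrays on a common scale. RMA is known to compress differences of dim probe sets. The arrays were not fully equal as deposited, with median intensities of 13.46 to 13.74 in aged and 13.79 to 13.99 in young animals. For the array design, the build and a measure of detection the entry is: not given in the sources used here. No level is called absent. One deposited table with gene symbols (43686 probe sets) served for the fit; its columns name the age group only. The other (43685 probe sets, each of the 10 columns identical to 1 in the other table) gave values for each replicate and fits without single arrays.

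Symbols were updated through the RefSeq gene table of GRCr8, used for names and promoter windows. Intensities were log2-transformed without pseudocount or filter and fitted with limma 3.58.1 in R 4.3.3 (lmFit, eBayes, age group as the only term, two-sided), with Benjamini-Hochberg adjustment over all probe sets and a threshold of 0.05. The script was tested on simulated data. Differences between 2 members used an exact permutation test over 252 splits. A gene outside the members stands by its brightest probe set. Named were all members, every listed gene that passed, Mat2a, Azin2, Eif5a and Slc3a2 whether or not they passed, and the 3 genes nearest each called member. Cell type markers that passed, and Cav1 and markers of which a dimmer probe set alone passed, were named after their values were seen. Paox, Sat1l1 and Atp13a3 of the lists were not analysed here. Array number limits the precision. The members and lists were chosen with earlier results of these data known.

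Alternatives were quantile normalization, median centring, brighter probe sets only, an intensity trend, array weights, a replicate block, each array left out, the columns named replacement left out, and means over probe sets.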

Additional observations from a re-analysis of the deposited data

Results flagged for a closer look

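In 62 groups of 5 animals (12 member probe sets, the 2 differences and the named pathway genes, each in aged and young animals), 5 held an animal whose gap to its nearest neighbour, divided by the range of the group on the log2 scale, was above Dixon's 95% value of 0.71. Chance gives about 1 in 20 such groups. On the brighter Amd1 probe set aged replicate 1 was the highest, at 381 against 241 to 255 in the other aged animals (ratio 0.88). On the dimmer Amd1 probe set young replicate 5 was the highest, at 218 against 188 to 195 (ratio 0.77). For Oaz2 aged replicate 5 was the lowest, at 1119 against 1169 to 1187 (ratio 0.736). For Cdkn1a aged replicate 1 was the lowest, at 2042 against 5203 to 6597 (ratio 0.798), and for Ahcy young replicate 3 was the lowest, at 442 against 508 to 526 (ratio 0.798).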

How the results depend on the processing

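Over 17 alternatives for each member probe set (16 for the dimmer Smox probe set, which the restriction to brighter probe sets removed), 189 of 203 values kept their direction and their side of the threshold, 13 lost a call, 1 gained one and 0 reversed. The calls of Sat1, Amd1, Azin1 and the brighter Smox probe set held under all 17, with log2 fold changes of 2.36 to 2.65 for Sat1. The lost calls were 12 of Oaz1 and 1 of Srm. Between 7 and 8 member probe sets passed without any single array, and 6 without the columns named replacement. Of the pathway genes 13 to 16 passed without any single array, against 16, and 12 without the columns named replacement. Over all probe sets the count was 5117 to 7627 without any single array. Without the columns named replacement it was 4520 rather than 6536, and 1846 rather than 3001 were lower. Without any single array the log2 difference of Azin1 minus Oaz1 was 0.25 to 0.39 and that of Sms minus Smox 0.68 to 0.90. With means over probe sets they were 0.37 and 0.48. With replicate number as a block these differences were 0.31 and 0.81, with an exact p of 0.0625 for each, the smallest that 5 pairs can give, so this test could not pass. Equal replicate numbers named different animals, and the deviations of equal numbers correlated between -0.117 and 0.027 over probe sets, so they share only a number. With the replicate block 7 member probe sets, 13 pathway genes and 5551 of all probe sets passed. No alternative was run for Odc1 minus Sat1. The causes of the lost calls were not tested.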
